A study of Rattus norvegicus with 64 samples.

Results

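The 10 genes described here encode proteins that fold or clear secretory proteins in the endoplasmic reticulum: Creld2, Hspa5, Hsp90b1, Sdf2l1, Manf (written MANF in the files), Hyou1, Pdia4, Pdia6, Calr and Herpud1. They were chosen by name with their levels in these same rats already known, so their differences between groups are a description: no p-value is given for any single one of them, and counts of the 10 past a threshold are counts only. All 10 were found under a single identifier each in every rat, among 17366 genes listed for all 64 rats and 26405 listed for any. RNA from the whole blood of adult male Sprague-Dawley rats, 85 to 90 days old, was sequenced after globin depletion, 1 library per rat. Each rat received 4 injections at 2 h intervals, and blood was taken by cardiac puncture 3 h after the last injection and frozen at once. Saline was given at 22.5 C (6 rats), in a cool 16 C environment (5 rats) or at 39 C (16 rats, environmentally induced hyperthermia, EIH). Amphetamine (AMPH) was given at 22.5 C (22 rats, labelled hyperthermic) or at 16 C (15 rats, labelled normothermic). No transgene or cell line was involved, body temperatures of single rats were not used here, and each rat is 1 replicate.

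The endoplasmic reticulum folds membrane and secreted proteins with the help of chaperones and of enzymes that form disulphide bonds. When unfolded proteins accumulate, the sensors ATF6, IRE1 and PERK start the unfolded protein response, in which ATF6 and XBP1 raise the transcription of chaperone genes while PERK slows translation and favours ATF4 and its targets. In blood these chaperones are most abundant in cells that secrete much protein, such as antibody-secreting plasma cells, and are also made by other leukocytes.

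The promoters are shown first because the element through which ATF6 and XBP1 act is short enough to be read in them. The endoplasmic reticulum stress element (ERSE) was searched as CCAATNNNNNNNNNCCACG and the related ERSE-II as ATTGGNCCACG, on both strands, in the 300 bases from 250 before to 50 after each start site in the RefSeq-based table of build GRCr8. That build is not the one used for the counts (rn5). Of the 10 genes, 8 had a promoter in the table, and Manf and Pdia6 did not. ERSE was present in 4 of the 8 (Creld2, Hspa5, Hsp90b1 with 2 matches, and Calr), against 0.0657% of 33469 promoters. ERSE-II was present in 2 of the 8 (Hyou1 with 2 matches, and Herpud1), against 0.0508% of all. The genes were chosen as endoplasmic reticulum stress genes and these elements as those of that response. Both counts are therefore a description and no test of enrichment. The heat shock element GAANNTTCNNGAA, the site of the cytosolic heat shock factor, was in none of the 8 and in 0.798% of all promoters. At that share most sets of 8 promoters would hold none, so nothing is read from its absence. The 3 motifs do not overlap in these windows, a match is a run of letters and not a measured binding site, and Sdf2l1 and Pdia4 held no exact match of any of the 3.

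The matched ERSE letters are compared here, written on the strand on which they read from CCAAT, with the position of the match given as bases before the start site on the promoter strand (Creld2 145, Hspa5 43, Hsp90b1 176 and 72, Calr 232); capitals mark the fixed parts of the motif.
Creld2: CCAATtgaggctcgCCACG
Hspa5: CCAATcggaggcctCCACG
Hsp90b1, upstream match: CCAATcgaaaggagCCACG
Hsp90b1, downstream match: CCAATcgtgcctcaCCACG
Calr: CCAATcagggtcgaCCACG

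The 250 bases before the start site are shown for Creld2 (chr7:121789134-121789383, plus strand), Hspa5 (chr3:38452766-38453015, plus strand) and Hyou1 (chr8:53602632-53602881, plus strand, the first of 2 start sites in the table), all in GRCr8 and written 5′ to 3′ along the gene; capitals mark an ERSE in Creld2 and Hspa5 and the 2 ERSE-II in Hyou1, on either strand.
Creld2: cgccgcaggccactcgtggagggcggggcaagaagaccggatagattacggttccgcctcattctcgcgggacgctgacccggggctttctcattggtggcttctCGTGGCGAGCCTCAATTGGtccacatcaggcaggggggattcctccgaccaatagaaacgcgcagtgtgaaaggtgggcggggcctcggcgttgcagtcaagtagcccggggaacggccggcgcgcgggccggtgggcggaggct
Hspa5: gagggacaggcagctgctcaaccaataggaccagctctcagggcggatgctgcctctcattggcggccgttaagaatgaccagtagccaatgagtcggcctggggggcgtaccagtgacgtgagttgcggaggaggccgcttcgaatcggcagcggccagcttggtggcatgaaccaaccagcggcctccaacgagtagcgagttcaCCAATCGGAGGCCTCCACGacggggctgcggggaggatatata
Hyou1: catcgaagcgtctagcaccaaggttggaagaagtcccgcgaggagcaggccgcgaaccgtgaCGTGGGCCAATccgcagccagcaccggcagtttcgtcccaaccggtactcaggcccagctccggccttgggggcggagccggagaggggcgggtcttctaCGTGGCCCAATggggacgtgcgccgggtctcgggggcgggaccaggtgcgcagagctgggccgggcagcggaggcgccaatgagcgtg

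The files hold expected counts, and levels are given as counts divided by DESeq2 size factors (normalised counts). Gene lengths were not used, so levels are compared between rats and never between genes. Total counts per rat ran from 19055615 to 40530319. The lowest count of any of the 10 genes in a rat was 38 (Creld2), a counting error of 16.2%, against a smallest spread between rats within a group of 35.2% (CV) for that gene; for Herpud1 the values were 7.45% and 7.37%. Size factors ran from 0.357 to 2.11, and 8 rats (6 of them saline 39 C) were under 0.65. Rats with more than 5000 Mb (myoglobin) counts, a sign of heart muscle carried over by cardiac puncture, were left out of the fits: 2 saline 22.5 C, 1 saline 39 C and 2 AMPH 16 C. AMPH 22.5 C rat 21 and saline 39 C rat 9 stood apart, with median correlations of 0.825 and 0.834 with their own group, as did saline 39 C rat 12 (0.849), one of the rats over 5000 Mb counts, and AMPH 22.5 C rat 17 had the lowest value of its group for 9 of the 10 genes.

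Across the 5 groups, 9 of the 10 genes had their highest median in AMPH rats at 22.5 C, and all 10 had their lowest median in saline rats at 22.5 C. Calr was the exception, with its highest median in saline rats at 39 C. The other 3 groups lay between and their order changed from gene to gene, as the plot of levels by group shows. Ranges of neighbouring groups overlapped for every gene. The share of all genes ordered in this way was not computed. Rats left out of the fits for their Mb counts are included in these medians. No sequencing project (defined below) held saline 22.5 C rats together with saline 16 C or 39 C rats. With project as a term in a fit, 7 of the 10 were lower in saline 16 C than in saline 22.5 C rats. For saline 39 C against saline 22.5 C rats, 8 of the 10 were higher in that fit and 2 lower.

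**Figure D1:**
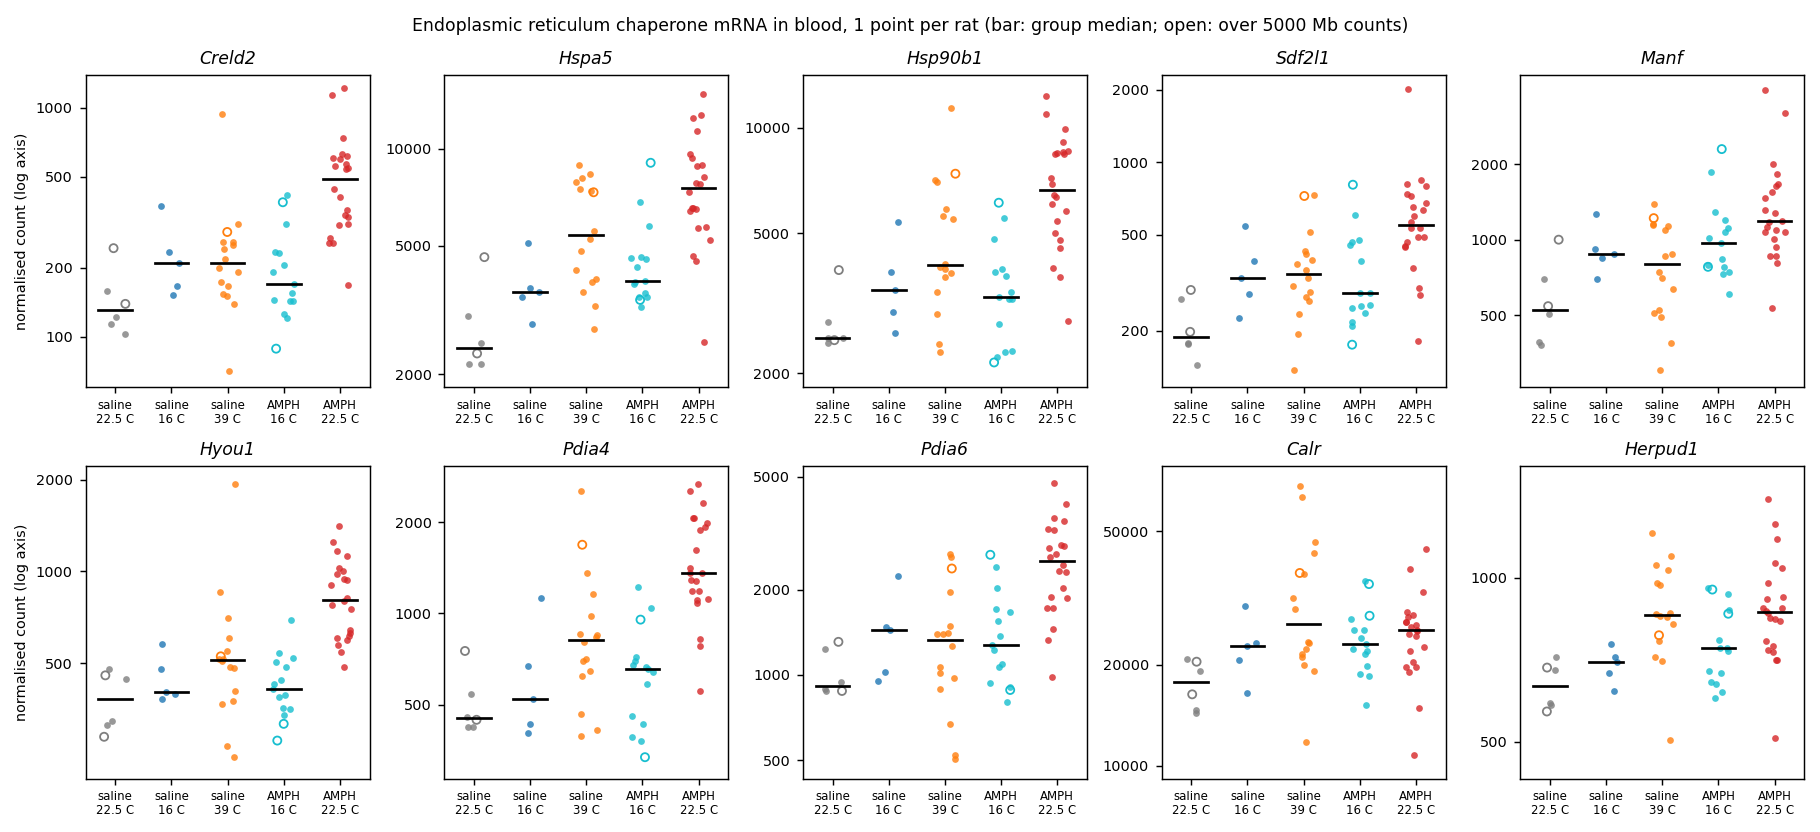
Normalised counts (log axis) of the 10 genes in each of 64 rats by group, with 1 panel per gene; bars are group medians and open circles are rats over 5000 Mb counts. For Creld2 the AMPH 22.5 C median (489) is the highest and the saline 22.5 C median (130) the lowest, while the Calr medians lie between 17724 and 26403.

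Creld2 encodes a resident disulphide isomerase-like protein of the endoplasmic reticulum that is induced by ATF6. In AMPH rats at 22.5 C its normalised count ran from 168 to 1217 with a median of 489. At 16 C, AMPH rats ran from 88.5 to 415 with a median of 169. Saline rats at 39 C ran from 70.6 to 943 with a median of 209, and apart from rat 9 at 943 none was above 312. The 5 saline 16 C rats had 153, 166, 209, 235 and 374. The 6 saline 22.5 C rats ran from 102 to 244 with a median of 130. Thus 21 of the 22 AMPH rats at 22.5 C were above the AMPH 16 C median, and 21 were above the median of the saline 39 C rats, while the ranges overlapped in their lower part.

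Of the chaperones that bind unfolded chains, Hspa5 (BiP, the Hsp70 of the endoplasmic reticulum, which also holds the stress sensors inactive) had a median of 7562 normalised counts in AMPH rats at 22.5 C (2516 to 14750). Its median was 5395 in saline 39 C rats (2755 to 8896), 3890 in AMPH 16 C rats (3224 to 9042), and 2416 in saline 22.5 C rats (2147 to 4615). The 5 saline 16 C rats had 2869, 3466, 3608, 3692 and 5107. The ratio of medians between AMPH 22.5 C and saline 39 C rats was 1.40 for Hspa5 and 2.34 for Creld2, and the ranges of these 2 groups overlapped for both genes.

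Hsp90b1 (GRP94, the Hsp90 of the endoplasmic reticulum, which folds Toll-like receptors and integrins) had medians of 6653 in AMPH 22.5 C rats (2814 to 12306), 4048 in saline 39 C rats (2294 to 11329) and 3283 in AMPH 16 C rats (2144 to 6108). The 5 saline 16 C rats had 2592, 2978, 3436, 3871 and 5382, and the 6 saline 22.5 C rats ran from 2432 to 3929 with a median of 2516. Hyou1 (GRP170, the nucleotide exchange factor of BiP) had medians of 809 (485 to 1410), 513 (246 to 1928) and 412 (279 to 690) in the AMPH 22.5 C, saline 39 C and AMPH 16 C rats. For Hyou1 the 6 saline 22.5 C rats ran from 287 to 477 with a median of 383, and the 5 saline 16 C rats from 382 to 580 with a median of 403.

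Pdia4 and Pdia6 are disulphide isomerases. In AMPH rats, Pdia4 (ERp72) had a median of 1360 at 22.5 C (555 to 2675) and 653 at 16 C (335 to 1225), and Pdia6 (P5, which binds the stress sensor IRE1) had 2526 at 22.5 C (980 to 4761) and 1277 at 16 C (802 to 2657). In saline rats at 39 C the medians were 818 for Pdia4 (393 to 2540) and 1329 for Pdia6 (507 to 2672). In saline rats they were 522 (403 to 1129) and 1445 (954 to 2239) at 16 C, and 450 (421 to 752) and 918 (877 to 1309) at 22.5 C. For each of them 21 of the 22 AMPH 22.5 C rats were above every saline 22.5 C rat. Most of these AMPH rats come from other sequencing projects (defined below) than the saline rats. The share of all genes reaching such a count was not computed.

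Sdf2l1 (a partner of ERdj3 in the BiP complex) had a median of 550 in AMPH 22.5 C rats (182 to 2008), with rat 21 at 2008 and the next at 845. It was 287 in AMPH 16 C rats (175 to 806), 343 in saline 39 C rats (137 to 732), 331 in saline 16 C rats (227 to 542) and 188 in saline 22.5 C rats (144 to 295). Manf (a secreted stress-inducible survival factor that binds BiP) had a median of 1183 in AMPH 22.5 C rats (535 to 3955) and 967 in AMPH 16 C rats (606 to 2295), a smaller gap than for the genes above. Its median was 880 in saline 16 C rats (695 to 1269), 800 in saline 39 C rats (304 to 1393) and 524 in saline 22.5 C rats (382 to 1000.0).

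Calr (calreticulin, a lectin chaperone that also buffers calcium) and Herpud1 (which recruits the ubiquitin ligase complex of endoplasmic reticulum associated degradation) had the smallest ratios of medians between AMPH 22.5 C rats and either AMPH 16 C or saline 22.5 C rats. Of the 16 saline 39 C rats, 13 for Calr and 14 for Herpud1 were above every saline 22.5 C rat. Of the 22 AMPH 22.5 C rats, 16 for Calr and 19 for Herpud1 were above them. The share of all genes reaching such counts was not computed. No sequencing project held both saline 39 C and saline 22.5 C rats, and most of the AMPH rats came from other projects than the saline 22.5 C rats. Calr medians lay between 17724 in saline 22.5 C rats and 26403 in saline 39 C rats, and its spread was widest at 39 C, from 11791 to 67988. Herpud1 medians lay between 633 in saline 22.5 C rats and 865 in AMPH 22.5 C rats. In saline 16 C rats the medians were 22808 for Calr (16522 to 30007) and 699 for Herpud1 (621 to 757). For Herpud1 the ratio of medians between AMPH 22.5 C and AMPH 16 C rats was 1.16, against 2.89 for Creld2.

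Differences between groups were fitted with edgeR over all genes, and a gene is called when its adjusted p is under 0.05 and its log2 fold change is above 0.58 in size. Because the genes were picked with these data known, calls among them are counted beside the share of all tested genes called in the same direction, and nothing is read from that count. Saline 22.5 C, saline 16 C, saline 39 C and both AMPH groups each enter several comparisons, so comparisons that share a group are not independent.

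The first question is how AMPH at a room temperature of 22.5 C differed from saline at that temperature. All 10 genes were higher in AMPH rats, with log2 fold changes of 1.68 ± 0.37 (SE) for Creld2, 1.68 ± 0.57 for Sdf2l1, 1.64 ± 0.39 for Hspa5, 1.59 ± 0.46 for Manf and 1.52 ± 0.40 for Pdia4 (8 AMPH rats whose IDs have the form of the controls' IDs, 4 saline rats). The values were 1.29 ± 0.37 for Hsp90b1, 1.29 ± 0.40 for Pdia6, 0.89 ± 0.23 for Hyou1, 0.59 ± 0.34 for Calr and 0.39 ± 0.23 for Herpud1. For Creld2 the 4 saline rats had 102, 113, 122 and 159 normalised counts and the 8 AMPH rats ran from 168 to 740 with a median of 325, so the groups did not overlap. The same held for Hsp90b1, Hyou1 and Pdia4, 4 of the 10 genes, where 0.366% of 12853 genes tested had every AMPH rat above every saline rat. The median log2 fold change was 1.40 over the 10 genes and -0.01 over all genes tested.

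None of the 10 genes was called in that comparison, and 0% of 12853 genes tested were called higher by edgeR, none being called in either direction. At an unadjusted p under 0.05 edgeR gave 1337 genes, 8 of the 10 among them, and the DESeq2 Wald test called 201 genes, 6 of the 10 among them (Creld2, Hspa5, Hsp90b1, Manf, Hyou1 and Pdia4). With all 22 AMPH rats in place of 8, edgeR called 780 genes and 8 of the 10, all but Calr and Herpud1. The added AMPH rats come from other sequencing projects than the saline rats, so drug and project cannot be told apart for them. A project is taken here as a set of rats whose file names share the token that follows the sample identifier. In 1 edgeR fit over all rats with project as a term, 349 genes and 4 of the 10 were called (Creld2, Hspa5, Hsp90b1 and Pdia4). Within the 2 projects that held both groups (7 AMPH and 4 saline rats) all 10 genes had a higher mean log2 level in AMPH rats, by 1.38 and 1.57 for Creld2. The share of all genes higher in both projects was not computed.

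AMPH at 16 C was set against saline at 16 C to see the drug in rats kept cool. Of the 10 genes, 5 were higher and 5 lower, with a median log2 fold change of 0.00, against 0.01 over all genes, but with project as a term in a fit over all rats 9 were higher (median 0.35; Pdia4 0.62, Pdia6 0.60, Hspa5 0.54) and 1 lower (Calr, -0.15). Creld2 was -0.20 ± 0.26, Hspa5 0.19 ± 0.17, Pdia4 0.05 ± 0.26 and Hsp90b1 -0.09 ± 0.21 (13 AMPH and 5 saline rats). None of the 10 was called by edgeR or by DESeq2, and edgeR called 0.234% of 12396 genes tested higher. At an unadjusted p under 0.05 edgeR gave 1927 genes, none of the 10 among them. The absence of a call does not show that AMPH left these genes unaltered at 16 C. All 5 saline 16 C rats came from 1 sequencing project, which held only 1 of the 13 AMPH rats, and that rat was above the mean of the 5 for all 10 genes, by 0.94 (log2) for Creld2 and 1.06 for Pdia4. Drug and project therefore cannot be told apart for the other 12 AMPH rats. Summed plasma cell markers were also lower in the AMPH rats (988 to 2162, median 1344) than in the saline rats (1576 to 2540, median 2147). B cell markers were lower too, with 0 of 5 positive and a median log2 fold change of -0.75. Among T cell markers 0 of 8 were positive, and among neutrophil markers 3 of 6. Platelet (4 of 5), monocyte (5 of 6) and reticulocyte markers (5 of 5) were mostly positive. No marker was called, and the part of these cells in the result was not tested. Creld2 was positive when saline 16 C rat 4, the highest at 374, was left out (0.038) and in the fit with project (0.345).

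Whether the drug difference itself changed with the environment was tested as the AMPH effect at 22.5 C minus that at 16 C. With project in the fit Creld2 gave 1.13 ± 0.57 (log2), Hspa5 1.06 ± 0.49 and Hsp90b1 0.81 ± 0.50, and none of 14000 genes was called by edgeR, with 1033 genes and 1 of the 10 at an unadjusted p under 0.05. Without project the values were 2.22 ± 0.53, 1.47 ± 0.37 and 1.52 ± 0.39. In that fit edgeR called 20 of 14000 genes, and none of the 10 was among them. At an unadjusted p under 0.05 it gave 1581 genes, 8 of the 10 among them. All 10 estimates were positive in both fits, and the share of all genes positive in both was not computed. A dependence of the drug difference on the environment was thus not established for any of the 10 genes at these group sizes.

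AMPH at 22.5 C was compared with AMPH at 16 C within 5 sequencing projects that held rats of both groups (10 and 9 rats), with project in the fit. For Pdia4 the 9 rats at 16 C ran from 380 to 1225 with a median of 584, and the 10 rats at 22.5 C from 1105 to 2075 with a median of 1457, and the ranges overlapped between 1105 and 1225. Its log2 fold change was 1.45 ± 0.17, followed by Creld2 at 1.37 ± 0.18, Hsp90b1 at 1.10 ± 0.16, Pdia6 at 0.97 ± 0.14, Sdf2l1 at 0.96 ± 0.11, Hyou1 at 0.93 ± 0.17 and Hspa5 at 0.72 ± 0.14. These 7 of the 10 were called higher, where 5.3% of 12091 genes were called higher and 4.79% lower. Manf (0.30 ± 0.14), Herpud1 (0.28 ± 0.13) and Calr (0.16 ± 0.14) were not called. No gene of the 10 separated the groups completely, and 0.62% of all genes tested did so in this direction. For Hsp90b1 9 of the 10 rats at 22.5 C were above every rat at 16 C, and the share of all genes reaching that count was not computed.

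Within each of the 5 projects the mean log2 level of Creld2 was higher at 22.5 C, by 0.53 to 1.66. The same sign in 5 of 5 projects was seen for Hspa5, Hsp90b1, Sdf2l1, Hyou1, Pdia4, Pdia6 and Herpud1, with the smallest difference for Hspa5 (0.02 in 1 project). For Manf and Calr 3 of 5 projects were higher. The share of all genes with the same sign in 5 of 5 projects was not computed.

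Markers of plasma cells moved with this comparison. The summed normalised count of the 7 marker genes (Igj, Sdc1, Tnfrsf17, Prdm1, Mzb1, Irf4 and Pou2af1) ran from 1880 to 5646 in the 10 rats at 22.5 C and from 988 to 1658 in the 9 rats at 16 C, without overlap. Of the 6 markers tested, Igj (the joining chain of secreted antibodies), Mzb1 (an endoplasmic reticulum protein of B-lineage cells) and Pou2af1 were called higher and Prdm1, the regulator of plasma cell fate, lower. Pou2af1 had the largest mean of the 6 (1350 at 22.5 C and 628 at 16 C). No B cell marker was called, but 5 of 5 were positive, with a median log2 fold change of 0.37. Of other blood cells, 3 of 6 monocyte markers and 1 of 5 platelet markers were called higher, and 1 of 6 neutrophil and 2 of 5 reticulocyte markers lower. Their part in the chaperone difference was not tested. In the comparison of AMPH with saline at 22.5 C the same sum ran from 1257 to 5073 in AMPH rats and from 1131 to 3322 in saline rats, with medians of 2558 and 2479. No marker of other blood cells was called there, but their signs were not even. The median log2 fold change was 1.30 for platelet markers (5 of 5 positive), 1.23 for neutrophil (6 of 6) and 0.64 for monocyte (5 of 6). It was -0.73 for T cell markers (0 of 8 positive) and -0.48 for B cell markers (0 of 5). The part of these cells in the chaperone difference was not tested. In whole blood, more cells of a type and more RNA per cell cannot be told apart.

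**Figure D2:**
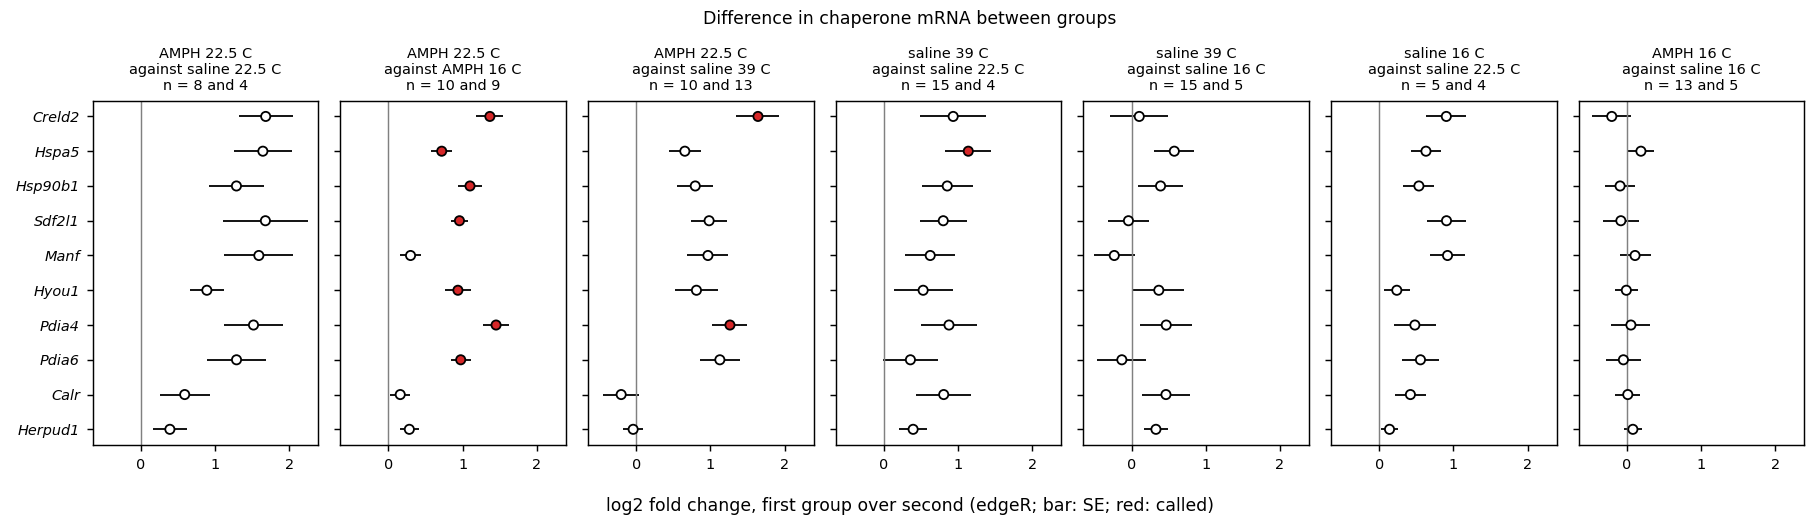
Log2 fold change (first group over second, x axis) of each of the 10 genes in 7 comparisons, with bars of 1 SE; red points are called by edgeR. The 7 called genes in AMPH 22.5 C against AMPH 16 C lie between 0.72 and 1.45, while AMPH 16 C against saline 16 C lies around 0, and Creld2 changed sign in other settings in the 2 saline 39 C comparisons, in saline 16 C against saline 22.5 C and in AMPH 16 C against saline 16 C.

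The next question is whether rats made hyperthermic by AMPH differed from rats heated without the drug. Creld2 in the 10 AMPH 22.5 C rats of the 7 projects shared with saline 39 C ran from 258 to 1217 with a median of 569, and in the 13 saline 39 C rats from 70.6 to 943 with a median of 199. Its log2 fold change was 1.64 ± 0.29, and Pdia4 gave 1.26 ± 0.24; these 2 of the 10 were called, where 0.116% of 12055 genes were called higher. Pdia6 was 1.13 ± 0.27, Sdf2l1 0.98 ± 0.24, Manf 0.97 ± 0.28, Hyou1 0.81 ± 0.29, Hsp90b1 0.80 ± 0.24 and Hspa5 0.66 ± 0.22, all higher without a call. Calr (-0.20 ± 0.24) and Herpud1 (-0.04 ± 0.13) were not. Creld2, Sdf2l1, Hyou1, Pdia4 and Pdia6 were higher in AMPH rats in all 7 projects, and the share of all genes with that sign in all 7 was not computed. Summed plasma cell markers had medians of 2182 in the AMPH rats and 2446 in the saline 39 C rats, while 7 of 8 T cell and 6 of 6 neutrophil markers had a positive log2 fold change, none of them called. Their part in the result was not tested.

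The count of calls changed with the rats included. Without saline 39 C rat 9, whose Creld2, Hsp90b1, Sdf2l1, Hyou1 and Pdia4 were the highest of its group, 6 of the 10 genes and 211 genes in all were called. Without the 6 rats whose size factor was under 0.65 (1 AMPH, 5 saline) none of the 10 and no gene was called by edgeR, with 744 genes and 8 of the 10 at an unadjusted p under 0.05, and Creld2 stayed at 1.48. The DESeq2 Wald test with all rats of the comparison called 5 of the 10 and 201 genes.

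Heat alone was compared with saline at 22.5 C. Hspa5 had 2147, 2157, 2510 and 3033 normalised counts in the 4 saline rats at 22.5 C and ran from 2755 to 8896 in 15 rats at 39 C, with a median of 5243, and 14 of these 15 were above all 4. The share of all genes reaching such a count was not computed. The Hspa5 log2 fold change of 1.14 ± 0.31 was the only call among the 10, where 7.01% of 12986 genes were called higher and 8.69% lower. Creld2 was 0.93 ± 0.45, Pdia4 0.88 ± 0.37, Hsp90b1 0.85 ± 0.34, Calr 0.81 ± 0.37 and Sdf2l1 0.80 ± 0.32, and Manf, Hyou1, Herpud1 and Pdia6 were between 0.36 and 0.62. The median over the 10 was 0.80, against -0.01 over all genes. No sequencing project held rats of both groups, so heat and project cannot be told apart directly. In the edgeR fit over all rats with project as a term none of the 10 was called. At an unadjusted p under 0.05 that fit gave 3454 of 14000 genes, 2 of the 10 among them. Hspa5 stayed at 0.93 ± 0.38, while Creld2 (-0.15) and Pdia6 (-0.15) turned negative and the median over the 10 was 0.22. The DESeq2 Wald test called 5 of the 10 (Hspa5, Hsp90b1, Sdf2l1, Pdia4 and Calr), and edgeR called 5 when rats over 5000 Mb counts were kept. Without saline 39 C rat 9 Creld2 was 0.61. Blood cell markers moved with this comparison: all 8 T cell markers were called lower and 4 of 5 platelet markers higher, and the summed T cell markers ran from 1660 to 7788 at 39 C against 8225 to 12430 at 22.5 C. Itgax (monocyte) and Csf3r (neutrophil) were also called higher and Cd180 (B cell) lower. No reticulocyte marker was called, but 5 of 5 were positive, with a median log2 fold change of 1.19. The part of all these cells in the result was not tested. The Hspa5 call was also lost without saline 22.5 C rats 17, 18 or 21.

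Heated rats were also compared with saline rats at 16 C. Hspa5 was 0.58 ± 0.27, Pdia4 0.47 ± 0.35 and Creld2 0.10 ± 0.39, and Sdf2l1, Manf and Pdia6 were -0.04 ± 0.27, -0.23 ± 0.28 and -0.13 ± 0.33 (15 and 5 rats). None of the 10 was called by edgeR or DESeq2, where edgeR called 8.02% of 12462 genes higher and 5.51% lower. At an unadjusted p under 0.05 edgeR gave 3920 genes, 1 of the 10 among them. Only 1 of the 15 heated rats shared the project of the saline 16 C rats, so heat and project cannot be told apart for the others. With project as a term 9 of the 10 were positive, Sdf2l1 (0.19) and Pdia6 (0.47) among them, and Manf was -0.10. Summed neutrophil markers ran from 55131 to 303286 in the heated rats against 344431 to 787532 at 16 C, without overlap, and their part was not tested. Creld2 was negative without saline 39 C rat 9 (-0.21) or saline 16 C rat 3 (-0.0074).

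Saline at 16 C against saline at 22.5 C asks what the cool environment did. All 10 genes were higher at 16 C, with Manf at 0.92 ± 0.24, Sdf2l1 at 0.91 ± 0.27, Creld2 at 0.90 ± 0.27 and Hspa5 at 0.63 ± 0.20, down to 0.14 ± 0.12 for Herpud1 (5 and 4 rats). Manf had 382, 392, 504 and 696 normalised counts in the 4 rats at 22.5 C and 695, 844, 880, 914 and 1269 in the 5 rats at 16 C, so that the groups overlapped by a single pair of rats. None of the 10 was called and 0% of 12238 genes were called higher by edgeR, with 5 of the 10 and 3195 genes at an unadjusted p under 0.05. DESeq2 called 4 of the 10 (Creld2, Hspa5, Sdf2l1 and Manf) and 1062 genes, and edgeR called the same number of the 10 and 1841 genes without saline 22.5 C rat 19. These groups share no project, and with project as a term 7 of the 10 turned negative (Pdia6 -0.62, Pdia4 -0.61, Creld2 -0.38, Hsp90b1 -0.35, Hyou1 -0.22, Sdf2l1 -0.10 and Herpud1 -0.05), with a median of -0.16 against 0.55 without project, so the direction for most of the set depends on how project is treated. No blood cell marker was called in this comparison, but summed T cell markers ran from 6127 to 8120 at 16 C against 8225 to 12430 at 22.5 C, without overlap, while the median log2 fold change was 1.34 for neutrophil (6 of 6 positive) and 0.94 for platelet markers (5 of 5). Their part in the result was not tested.

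Levels of most of the 10 genes were correlated from rat to rat. Over all 64 rats, Pearson correlations of log2 levels with Creld2 were highest among 8050 genes for Pdia4 (0.880), Hsp90b1 (0.873), Hyou1 (0.860), Dnajb11 (0.841), Pdia6 (0.827), P4hb (0.816), Sdf2l1 (0.813), Pdia3 (0.805), Nans (0.804) and Ssr2 (0.788). Of these 10 most similar genes, 5 are members of the set. Dnajb11 (ERdj3), P4hb and Pdia3 are further folding factors of the endoplasmic reticulum, Ssr2 is a translocon subunit and Nans makes sialic acid. With group means removed these correlations were between 0.690 and 0.803. The members were picked as a group with these data known, so the likeness is a description.

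Within the 22 AMPH rats at 22.5 C, Creld2 had Pearson r of 0.807 with Hsp90b1, 0.803 with Hyou1, 0.786 with Pdia6 and 0.674 with Pdia4 (Spearman rho 0.788, 0.739, 0.788 and 0.602), while the median gene of 8050 had 0.01. With Calr and Herpud1, r was 0.510 and 0.375, and 0.313 and 0.307 without the 2 rats farthest from the Creld2 median. Within the 15 AMPH rats at 16 C, r was 0.923 with Pdia6, 0.891 with Sdf2l1 and 0.876 with Pdia4, but 0.03 with Calr and -0.03 with Herpud1. Within the 16 saline rats at 39 C, r was 0.879 with Pdia4 and 0.830 with Hyou1, and that with Hyou1 was 0.459 without the 2 farthest rats. With Hspa5 it was 0.436, and 0.897 without those 2 rats. Among rats that share a project, with project means removed, r with Pdia4 was 0.742 (16 AMPH rats at 22.5 C), 0.894 (11 AMPH rats at 16 C) and 0.887 (12 saline rats at 39 C). For Calr it was 0.815, -0.610 and -0.470 in the same groups and for Herpud1 0.644, -0.09 and 0.300, so that among AMPH rats at 22.5 C these genes were correlated with Creld2 within projects.

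**Figure D3:**
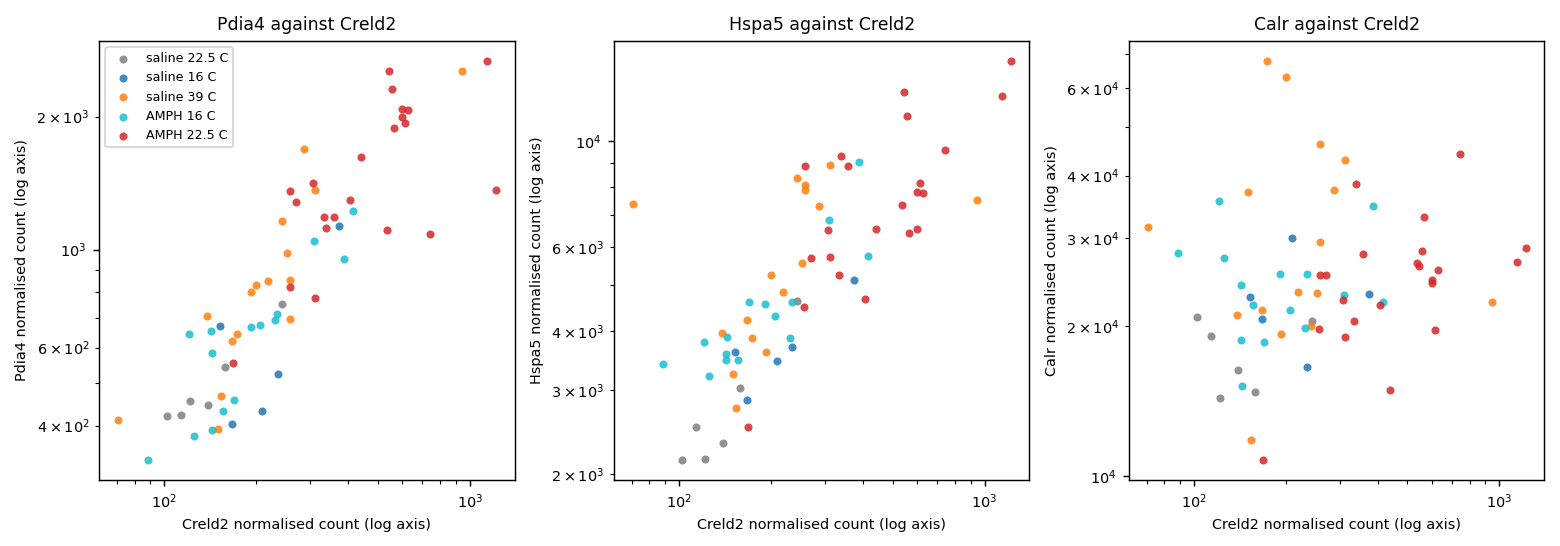
Normalised counts (both axes log) of Pdia4, Hspa5 and Calr against Creld2, 1 point per rat, coloured by group. Pdia4 and Creld2 lie along 1 band in all groups (r = 0.880 over 64 rats), Hspa5 is more scattered in saline 39 C rats (r = 0.436), and Calr shows no such band over all rats.

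Neighbouring pathways were followed with lists written with earlier results of these data known. Among 24 tested folding factors of the endoplasmic reticulum outside the set, 3 were called higher and 1 lower in AMPH 22.5 C against AMPH 16 C rats. Of all 12091 genes tested there, 5.3% were called higher and 4.79% lower. Erp29 (a chaperone of the disulphide isomerase family) was 0.88 ± 0.15 (edgeR adjusted p = 0.000970) and P4hb 0.62 ± 0.15 (adjusted p = 0.0114), while Ero1lb, an oxidase, was -0.66 ± 0.19 (adjusted p = 0.0263). The list median was 0.37, below the 0.95 of the 10 genes. Dnajb11 and Canx (calnexin, the membrane-bound partner of calreticulin) were 0.52 ± 0.10 and 0.55 ± 0.12, under the fold threshold with adjusted p = 0.00176 and 0.00550.

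None of the 16 genes of endoplasmic reticulum associated degradation was called in that comparison, and their median was -0.16. Of 21 translocon, signal peptidase and glycosylation genes, Ddost (an oligosaccharyltransferase subunit) was called higher at 0.58 ± 0.15 (edgeR adjusted p = 0.0122) and Ssr3 (a translocon-associated subunit) lower at -0.75 ± 0.14 (adjusted p = 0.00157). Over all genes tested 5.3% were called higher and 4.79% lower, so nothing is read from 1 call in each direction. None of the 9 sensors and transcription factors was called. Xbp1, the factor activated by IRE1 splicing, was 0.57 ± 0.21 (adjusted p = 0.0805), Atf6 -0.47 ± 0.18 (adjusted p = 0.0827) and Ern1 (IRE1) -0.70 ± 0.25 (adjusted p = 0.0644); the files count genes and do not resolve the spliced form of Xbp1.

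Of 9 genes of the PERK-ATF4 arm, Chac1 (a glutathione-degrading enzyme) at 1.51 ± 0.37 (edgeR adjusted p = 0.0113) and Trib3 (a pseudokinase induced by ATF4 and CHOP) at 1.42 ± 0.17 (adjusted p = 5.45e-05) were called higher, while Ddit3 (CHOP) was 0.17 ± 0.17. All 15 cytosolic heat shock genes tested were called higher, with a median of 2.78, the largest being Hspa1b at 8.06 ± 0.77 and Hsph1 at 6.48 ± 0.45.

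The same lists were followed in saline rats at 39 C against saline rats at 22.5 C. There 7 of the 9 PERK-ATF4 genes were called higher (Atf4, Ddit3, Atf3, Trib3, Chac1, Sesn2 and Cebpb, list median 1.60), 14 of the 15 cytosolic heat shock genes (median 3.95) and 1 of the 10 chaperones (median 0.80), where 7.01% of all genes were called higher and 8.69% lower. DESeq2 called 5 of the 10. Ddit3 was 1.60 ± 0.39 (edgeR adjusted p = 0.0139) and Trib3 2.57 ± 0.51 (adjusted p = 0.00561). Of the other folding factors, Uggt1 (a glycoprotein folding sensor) was called higher at 0.81 ± 0.24 (adjusted p = 0.0309) and Dnajc10 lower at -0.64 ± 0.16 (adjusted p = 0.0151). Sec11c, a signal peptidase subunit, was called higher at 0.91 ± 0.29 (adjusted p = 0.0388), and Eif2ak3 (PERK) lower at -1.02 ± 0.25 (adjusted p = 0.0129). None of the 16 degradation genes was called. Project and heat cannot be told apart here, as above.

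Against saline rats at 16 C the heated rats had 4 of 9 PERK-ATF4 genes called higher, Trib3 at 1.92 ± 0.41 and Ddit3 at 1.10 ± 0.32 among them, and 14 of 15 cytosolic heat shock genes, with no call among the 10 chaperones, where 8.02% of all genes were called higher and 5.51% lower. The neutrophil markers S100a8, S100a9 and Camp and the T cell markers Cd2 and Cd8a were called lower there, and Cd14, Itgax and Ppbp higher, and their part was not tested. Edem3, of the degradation list, was called higher at 1.02 ± 0.21 (edgeR adjusted p = 0.00296), Uggt1 higher at 0.98 ± 0.22 (adjusted p = 0.00480) and Ssr3 lower at -1.41 ± 0.18 (adjusted p = 5.74e-05).

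In AMPH 22.5 C against saline 39 C rats the median log2 fold change was 0.89 for the 10 chaperones, -0.18 for the PERK-ATF4 arm and -0.47 for the cytosolic heat shock genes. All 15 of the latter had a negative sign, and edgeR called no gene of the 6 lists. Trib3 was -0.12 ± 0.30 (edgeR adjusted p = 0.875) and Ddit3 -0.53 ± 0.29 (adjusted p = 0.427) in that comparison, and Dnajb11, P4hb and Ssr2, among the genes most like Creld2, were 0.75 ± 0.24, 0.68 ± 0.25 and 0.71 ± 0.17, with adjusted p = 0.202, 0.247 and 0.108. In AMPH 22.5 C against saline 22.5 C rats, AMPH 16 C against saline 16 C rats and saline 16 C against saline 22.5 C rats, no gene of the 6 lists was called. In the first of these, where edgeR called no gene at all, the cytosolic heat shock genes had a median of 2.68 with 15 of 15 positive, the PERK-ATF4 arm 1.21 with 9 of 9 positive, and Xbp1 was 1.99 ± 0.56 (edgeR adjusted p = 0.426).

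**Figure D4:**
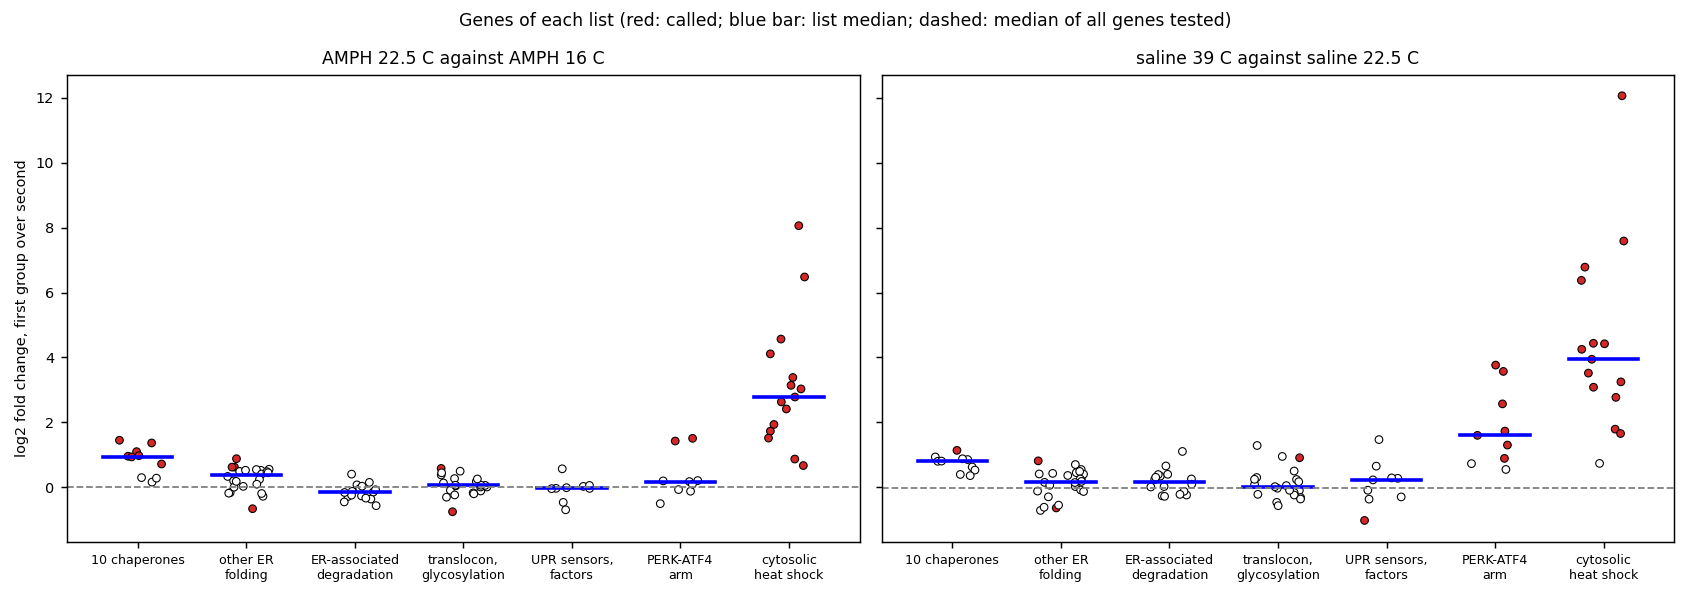
Log2 fold change of each gene in the set and in 6 neighbouring lists (x axis) for AMPH 22.5 C against AMPH 16 C rats and saline 39 C against saline 22.5 C rats; red points are called, blue bars are list medians and the dashed line is the median of all genes tested. The 10 chaperones have medians of 0.95 and 0.80, the PERK-ATF4 arm 0.17 and 1.60, and the cytosolic heat shock genes 2.78 and 3.95.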

How the data were processed

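Per the labels, the submitters' processing notes name CASAVA 1.8.2, Bowtie 0.12.9, RSEM 1.2.0 and build rn5, without giving each tool's role; the study's methods name RSEM for the gene values. The authors deposited RSEM expected counts per gene and rat, not normalized; rounding to integers was done here. The files list 6 different sets of genes, and a gene outside a file's set has no value for that rat. Groups came from the labels. Sequencing project stands here for the token that follows the sample identifier and that groups of file names share. The meaning of this token is not given in the sources used here, and the name project is a reading of it.

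Tests used edgeR 4.0.16 (TMM, quasi-likelihood) in R 4.3.3 with Benjamini-Hochberg adjustment. Genes with at least 10 counts in as many rats as the smaller group held were tested and adjusted over. The test returns no SE, so each SE given is the size of the log2 fold change divided by the square root of its F statistic. DESeq2 1.42.0 gave size factors and a Wald test. Python 3.11.15 was used for medians and for correlations of log2(normalised count + 1), with a mean of at least 100 for the genes compared. Rats with over 5000 Mb counts were left out of fits. Every pair of rats within a group differed by more than sampling noise, and the fitting code was tested on simulated data.

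The 10 genes, the pathway lists and the marker lists were chosen with earlier results of these data known. Named genes are all 10 members, up to 2 called genes per direction from each pathway list, and the 10 genes most like Creld2 in log2 level. Further genes (Dnajb11, Canx, Xbp1, Atf6, Ern1, Ddit3 and genes named to complete a count) were named after their values were seen.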

Additional observations from a re-analysis of the deposited data

Results flagged for a closer look

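In groups of 4 to 10 rats, 1 value stood far from the others: Hsp90b1 in saline 22.5 C rat 22 was 3929 normalised counts, while the next of the 6 rats was at 2800, so that 0.706 of the group's log2 range lay between them. Of 20 such sets of values examined (10 genes in 2 groups), chance alone would put about 1 in 20 past that limit. This rat was left out of the fits for its Mb counts (over 5000), and it also held the highest value of its group for 7 of the 10 genes.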

How the results depend on the processing

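Each comparison was refitted under other settings, and the cause of each change below was not tested. In AMPH 22.5 C against saline 22.5 C rats, where edgeR called none of the 10 genes and no gene at all, DESeq2 called 6 and 201, all 22 AMPH rats gave 8 and 780, leaving out saline rat 19 and AMPH rat 17 together gave 4 and 427, and 1 fit over all rats with project gave 4 and 349; leaving out any 1 rat or using the replicate block gave 0 and 0. In AMPH 16 C against saline 16 C (54 genes in all), DESeq2 called 350, the replicate block 123, keeping rats over 5000 Mb counts 28 and the fit with project 0, and without 1 saline rat the count ran from 8 to 39 and Creld2 from -0.32 (without rat 3) to 0.038 (without rat 4), and Creld2 was 0.345 with project. In saline 39 C against saline 22.5 C (1 and 2038), DESeq2 called 5 of the 10, keeping rats over 5000 Mb counts 5 and 3692, the fit with project 0 and 400 (Creld2 -0.15), leaving out low size factors 902 genes, and without 1 saline rat 0 to 1 and 270 to 1931. In saline 39 C against saline 16 C (0 and 1687), the replicate block gave 948 genes and Creld2 -0.38, without 1 saline 16 C rat 997 to 1161 genes were called and Creld2 ran from -0.0074 (without rat 3) to 0.36 (without rat 4), and Creld2 was -0.21 without saline 39 C rat 9. In saline 16 C against saline 22.5 C (0 and 1), DESeq2 called 4 and 1062, keeping rats over 5000 Mb counts 67 genes, and without 1 rat 0 to 4 and 0 to 1841 (the highest without saline 22.5 C rat 19), and Creld2 was -0.38 with project. In AMPH 22.5 C against AMPH 16 C (7 and 1220), the replicate block called 3 of the 10 and 857 genes, and every other setting called the same 7. In AMPH 22.5 C against saline 39 C (2 and 16), DESeq2 called 5 and 201, no project term 5 and 396, the fit with project 7 and 223, the replicate block 1 and 3, leaving out low size factors 0 and 0, and leaving out saline 39 C rat 9 6 and 211. The settings on size factors and on correlation with the group were chosen after seeing the data, as was the test of the drug difference between environments.

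Replicate numbers are shared by the groups in the labels, but nothing says that they pair rats. The main fits therefore did not use the numbers as pairs, and the replicate block was an alternative. Same-numbered rats did not deviate together in every pair of any comparison (mean r from -0.02 to 0.23). In AMPH against saline at 22.5 C, however, 3 of 4 numbers matched best with themselves. The mean r there was 0.23 for the same number and -0.08 for other numbers, and what same-numbered rats share was not tested. No paired fit was possible for saline 39 C or saline 16 C against saline 22.5 C because these groups share no number. TMM scaling in place of DESeq2 size factors gave the ratios of Creld2 and Hspa5 within the spread between rats. The control groups of 4 and 5 rats and the projects held by 1 group limit these results.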
